A study of Mus musculus with 6 samples.

Results

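The proteins of the mitochondrial ribosome were followed in tumour-infiltrating CD8+ T cells of mice given IL-10/Fc or phosphate-buffered saline (PBS). They were taken as the rows of the count table whose symbol starts with Mrpl or Mrps and a number, 81 of the 15898 genes listed. Of these, 50 carry an Mrpl name, for the large subunit, and 31 an Mrps name, for the small subunit. The annotation calls 77 of them protein-coding (48 Mrpl and 29 Mrps) and 4 processed pseudogenes. All 81 passed the filter on low counts and were among the 15477 genes tested. Mrpl53 was not analysed here.

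The mitochondrial ribosome, or mitoribosome, translates the few mRNAs of the mitochondrial genome, which encode core subunits of the respiratory chain and ATP synthase. Its ribosomal RNAs come from the mitochondrial genome, while every protein in it is encoded in the nucleus and imported. Some of these proteins descend from those of the bacterial ribosome and others are found in mitochondria alone. In activated T cells mitochondrial translation supports respiration and effector function.

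Libraries were made from 2 samples of PBS-treated and 4 of IL-10/Fc-treated animals. IL-10/Fc is interleukin-10 fused to an antibody Fc part. In both groups C57BL/6 hosts had been irradiated with 4 Gy and given naive Thy1.1+ PMEL T cells, of the transgene Tg(TcraTcrb)8Rest/J on B6.Cg-Thy1a/Cy, whose receptor recognises the melanocyte antigen gp100, and B16F10 melanoma. On day 10 both received activated Thy1.2+ PMEL cells, and from then on 4 injections beside the tumour, of 20 µg IL-10/Fc or of PBS. On day 18, 500 Thy1.1+PD-1+TIM-3+CD8+ cells were sorted per library at a purity above 99% and made into Smart-Seq2 libraries, which are primed on the poly(A) tail and do not mark strand. The labels do not tell whether the libraries stem from separate mice, and the p-values then reflect only how these samples vary, in part perhaps for technical reasons. The cells are T cells of 1 transgenic receptor in an irradiated host, and the host's own T cells were outside the gate.

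Depth was 26738871 to 36941814 counts per library. Values below are CPM, counts scaled to a common library total and by TMM, a factor for differences in composition, 1.10 and 1.06 for the PBS libraries and 0.950 to 0.983 for the others. All 10 markers of CD8 T cells and of the sort were measured, and their summed level was 15379 and 21241 CPM in PBS and 23128 to 26541 CPM in IL-10/Fc. Much of that sum was Trbv14, at 8478 and 10462 CPM in PBS and 10274 to 12020 CPM in IL-10/Fc. Of the 10, 8 were higher and 2 lower in log2 fold change. The lower ones were Pdcd1 (1578 and 1286 against 700 to 1112 CPM, no overlap) and Tox (33.1 and 480.5 against 20.1 to 181 CPM). Havcr2 overlapped, at 200 and 189 against 161 to 312 CPM. Of 4 CD4 T cell markers, 1 was among the genes listed (Zbtb7b, at most 0.969 CPM). All 16 macrophage and monocyte markers were measured, at a summed 694 and 702 CPM in PBS and 723 to 1470 CPM in IL-10/Fc, with Mrc1 at 0 in both PBS libraries. Much of the PBS sum was Ccr2 (360 and 189 CPM) and Lyz2 (40.3 and 301 CPM). Of the 16, 14 had log2 fold changes above 0 and 2, Apoe and Lyz2, below, with a median of 1.38. Fcer1g, for example, was at 34.4 and 40.7 CPM in PBS and at 84.6 to 375 CPM in IL-10/Fc. The 6 NK cell markers measured of 8 listed summed to 77.8 and 112 CPM against 119 to 532 CPM. Fcer1g and Tyrobp (18.0 and 30.1 against 12.2 to 120 CPM) are in both this list and the macrophage list, so those sums are not separate. They made up most of the NK sum in IL-10/Fc, and the rest of it overlapped between groups. The 7 of 8 dendritic cell and MHC class II markers summed to 228 and 310.3 against 172 to 1915 CPM. The 3 of 7 B cell markers summed to 42.5 and 44.9 CPM in PBS and to 4.49 to 18.0 CPM in IL-10/Fc, and the 4 of 7 melanoma markers to at most 9.04 CPM. The 20 genes of DNA replication and mitosis summed to 2214 and 2240 CPM in PBS and to 1455 to 2468 CPM in IL-10/Fc. These values moved beside the results below, and their part in them was not tested. In sorted bulk samples, fewer cells of a type and less RNA per cell cannot be told apart.

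The start regions of 3 members are printed as examples. Mrpl52 and Mrps16 were among the members higher in IL-10/Fc, and Mrpl50 was the lower member of smallest p. Whether these sequences have a part in the differences described below was not tested. Each sequence is the RefSeq promoter window, most of it before the start (build GRCm38.p6, 5′ to 3′ on the gene's strand), with CCGGAAG, the core of an ETS factor motif, in capitals, or CTTCCGG where it lies on the other strand. The windows are chr14:54426659-54426958 on the plus strand, chr14:20393441-20393740 on the minus strand and chr4:49521034-49521333 on the minus strand.
Mrpl52: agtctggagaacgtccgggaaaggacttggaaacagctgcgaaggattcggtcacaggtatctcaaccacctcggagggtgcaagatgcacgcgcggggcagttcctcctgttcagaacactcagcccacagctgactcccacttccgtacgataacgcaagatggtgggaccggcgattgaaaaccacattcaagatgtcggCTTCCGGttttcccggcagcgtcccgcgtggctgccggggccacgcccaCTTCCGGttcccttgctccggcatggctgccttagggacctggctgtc
Mrps16: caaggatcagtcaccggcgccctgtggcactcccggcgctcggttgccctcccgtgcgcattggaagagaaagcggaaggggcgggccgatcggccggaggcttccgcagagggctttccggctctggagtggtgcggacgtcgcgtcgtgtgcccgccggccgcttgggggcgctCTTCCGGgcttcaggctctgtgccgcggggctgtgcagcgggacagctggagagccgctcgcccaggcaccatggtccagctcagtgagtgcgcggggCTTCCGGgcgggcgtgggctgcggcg
Mrpl50: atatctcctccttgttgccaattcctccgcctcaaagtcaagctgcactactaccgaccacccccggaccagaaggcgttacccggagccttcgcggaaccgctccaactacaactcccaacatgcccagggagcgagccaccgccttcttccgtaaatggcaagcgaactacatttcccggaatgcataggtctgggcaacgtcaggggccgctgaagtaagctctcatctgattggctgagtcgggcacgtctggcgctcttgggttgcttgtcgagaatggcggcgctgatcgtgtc
A promoter window was found for 68 of the 77 protein-coding members. Each motif was searched on both strands. CCGGAAG was in 24 of the 68 (35.3%), against 19.5% of the windows of 9181 genes tested and 9.12% of all 27025 windows. AAGATGGC, the core of the YY1 motif, was in 12 (17.6%), against 5.07% and 2.88%. The palindromic motif of nuclear respiratory factor 1 (NRF1), known for its part in mitochondrial gene expression, was in 3 (4.41%), against 2.15% and 0.977%. GGGCGG, the core of the SP factor motif, was in 34 (50.0%), against 63.2% and 35.9%. CCGGAAG and AAGATGGC were thus more frequent, and GGGCGG less frequent, in these windows than in those of all genes tested, given here as counts with no test.

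In the comparison of IL-10/Fc with PBS, the mitoribosome genes as a whole were centred near no difference, and individual members lay on both sides of it. No member passed an adjusted p of 0.05 in edgeR's quasi-likelihood test, in which 1 gene of all tested did (0.00646%). The smallest adjusted p among the members was 0.179, that of Mrpl52. Limma-voom also called 0, while the DESeq2 Wald test, run as an alternative, called 5: Mrpl52, Mrpl33, Mrps16 and Mrps24 as higher, with adjusted p of 2.26e-04, 0.00271, 0.00512 and 0.0214, and Mrpl50 as lower, with 0.0470. The DESeq2 Wald test called 734 genes in all.

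At an unadjusted p under 0.05, 11 members were higher in IL-10/Fc (13.6% of them, against 7.2% of all genes tested) and 5 were lower (6.17%, against 5.52%). The 11 were 5 Mrpl and 6 Mrps members, and the 5 were 3 Mrpl and 2 Mrps members. Members were at a higher level than most genes tested, with a median mean CPM of 63.4 against 9.08. Among genes with at least 20 CPM in 2 libraries, tested alone, 9 members were higher (12.9%, against 10.2% of those genes) and 5 lower (7.14%, against 9.71%). With library size in place of TMM scaling, the split was 4 higher (4.94%, against 4.21% of all genes tested under that scaling) and 14 lower (17.3%, against 10.6%). It was 6 (7.41%, against 5.70%) and 3 (3.70%, against 3.74%) without PBS replicate 1. When IL-10/Fc replicate 4 was left out it was 7 (8.64%, against 5.50%) and 4 (4.94%, against 4.36%). In 15 members the 4 IL-10/Fc libraries all lay above both PBS libraries (18.5%, against 12.1% of all genes tested), and in 7 they all lay below (8.64%, against 11.5%). With a mean of at least 20 CPM these were 14 and 7 of 70 members, beside 937 and 743 of 5452 genes tested. Under TMM scaling the share of members lower at an unadjusted p under 0.05 was near that of all genes.

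The median log2 fold change of the 81 members was 0.01, with 43 above 0 (53.1%, against 49.3% of all genes tested) and 38 below (46.9%, against 50.7%), beside a median of -0.01 over all genes tested. With library size in place of TMM scaling, both medians moved down together, to -0.15 and -0.18. The members' log2 fold changes ran from -0.70 (Mrps9) to 0.89 (Mrpl52) with an SD of 0.302, which is narrower than the SD of 0.517 over the 5452 genes tested with a mean of at least 20 CPM. By ancestry, the 46 members placed with a bacterial counterpart had a median of -0.01 (21 higher, 25 lower), and the 30 placed as found in mitochondria alone a median of 0.05 (18 higher, 12 lower). Mrps18a and Mrps18b, relatives of bacterial S18, were counted among the 30.

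**Figure D1:**
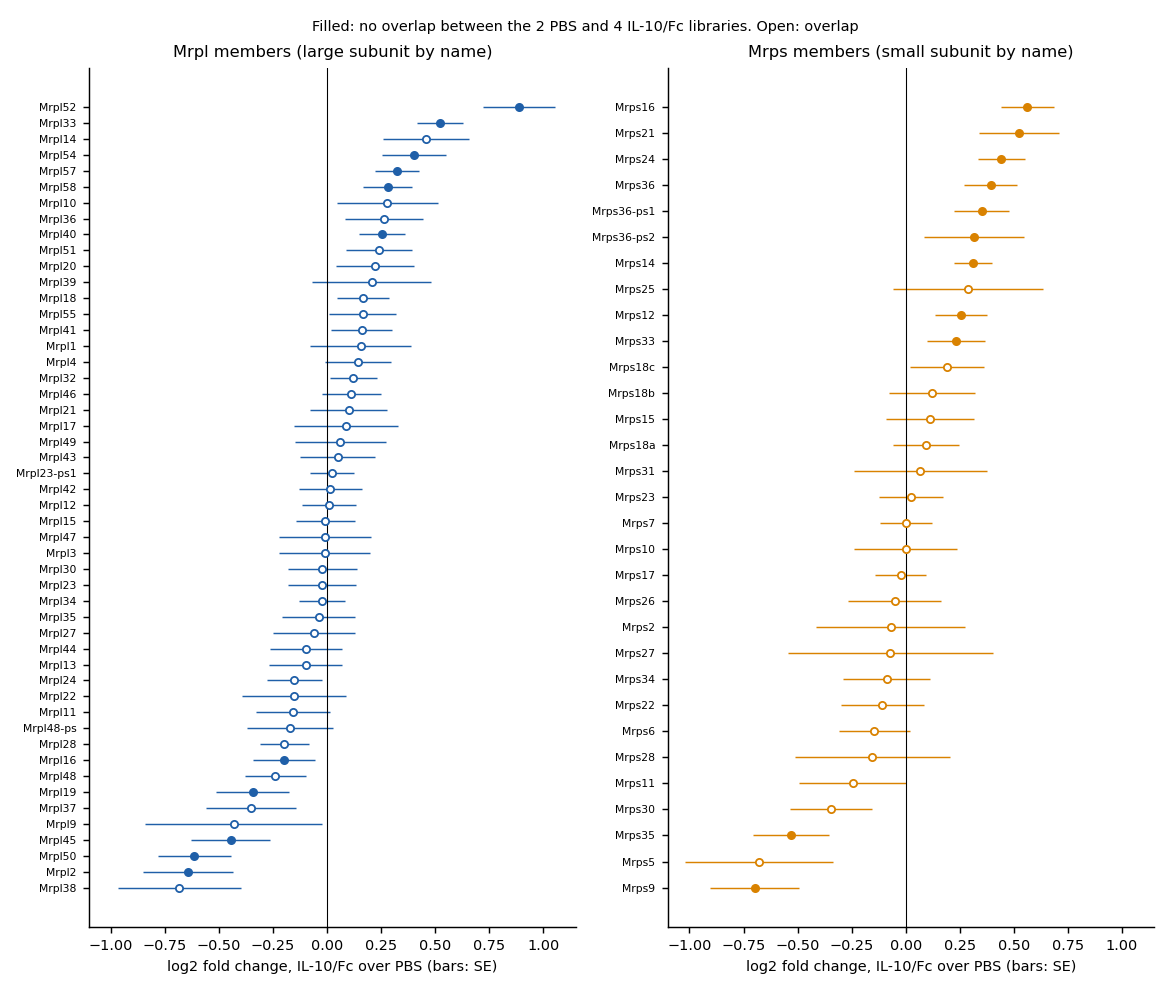
Fitted log2 fold changes of all 81 rows, IL-10/Fc over PBS, for the 50 Mrpl rows (left) and the 31 Mrps rows (right); points are fitted values, bars their standard errors, and filled points mark rows whose 2 PBS and 4 IL-10/Fc libraries did not overlap. Both columns run through 0, from -0.68 to 0.89 for Mrpl rows and from -0.70 to 0.56 for Mrps rows.

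The large and the small subunit did not separate. The 50 Mrpl rows had a median log2 fold change of 0.01 (26 higher, 24 lower) and the 31 Mrps rows 0.03 (17 higher, 14 lower), which with library size alone became -0.16 and -0.15. Summed over the Mrpl rows, the level was 3895 and 4148 CPM in PBS and 4062, 4257, 4257 and 4493 CPM in IL-10/Fc, so that the groups overlapped. Summed over the Mrps rows it was 2042 and 2120.3 CPM in PBS and 2202, 2242, 2283 and 2330.3 CPM in IL-10/Fc, 2081 ± 55.7 (SD, n = 2) against 2264 ± 55.0 (SD, n = 4), with every IL-10/Fc library above both PBS libraries. All 81 rows together gave 5936 and 6268 CPM in PBS and 6264, 6499, 6540 and 6824 CPM in IL-10/Fc, which overlap. The order of the libraries in these sums depends on the scaling. Taken without the TMM factors, the Mrpl, Mrps and all-row sums were each lower in every IL-10/Fc library than in either PBS library. For the Mrps sum the nearest libraries of the groups then differed little.

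The ratio of the Mrpl sum to the Mrps sum was 1.91 and 1.96 in the PBS libraries, and in the IL-10/Fc libraries 1.84, 1.90, 1.86 and 1.93. Its mean was 1.93 ± 0.0342 (SD, n = 2) against 1.88 ± 0.0370 (SD, n = 4), a difference of -0.048 that is close to the SD within each group. The name of a protein does not always give its place: Mrps18a and Mrps30 sit in the large subunit of the solved structures, and Mrps36 is known as a subunit of the 2-oxoglutarate dehydrogenase complex. With members placed by structure, all 4 pseudogenes left out and Mrps36 in neither, the medians were 0.01 for 50 large and 0.00 for 26 small subunit members, and the difference in the ratio was -0.0525.

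**Figure D2:**
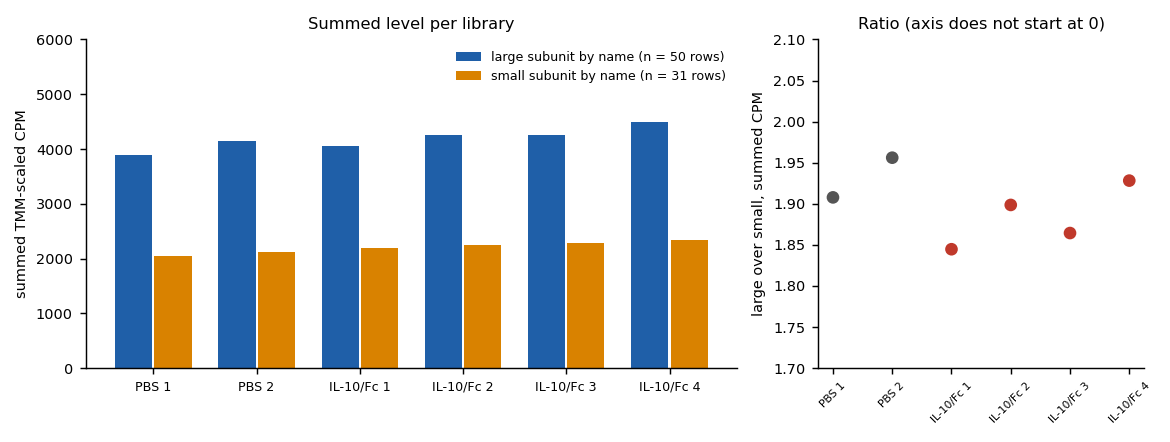
Summed TMM-scaled CPM of the 50 Mrpl and 31 Mrps rows in each library (left, bars from 0) and the ratio of the sums (right, axis not from 0; grey PBS, red IL-10/Fc). The PBS ratios of 1.91 and 1.96 overlapped with the range of 1.84 to 1.93 in IL-10/Fc.

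Among the higher members of smallest p, Mrpl52, a large-subunit protein found in mitochondria alone, differed most. Its gene (chr14:54426909-54429756) was at 82.7 and 120.0 CPM in PBS and at 182, 180.3, 185 and 201 CPM in IL-10/Fc. All 4 IL-10/Fc libraries were above both PBS libraries, at a mean of 187 ± 9.39 (SD, n = 4) against 101 ± 26.4 (SD, n = 2). The log2 fold change was 0.89 (SE 0.17), with an unadjusted p of 0.00152. Per kilobase of merged exon, a scale on which genes can be compared, its level was 206 in PBS, below Mrpl42 (246), Mrps21 (230.1) and Mrpl54 (224), and 381 with IL-10/Fc, the highest of any member there.

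Mrpl33, the counterpart of bacterial L33 and the member with the shortest coding sequence, at 195 bases, was at 89.8 and 102 CPM in PBS and at 132, 139, 146 and 135 CPM in IL-10/Fc, with no overlap. The log2 fold change was 0.52 (SE 0.11, unadjusted p 0.00234, adjusted p 0.193 by edgeR's quasi-likelihood test). Its exons overlap those of the gene model Gm43809 over 22.4% of their length, and without strand the reads of the overlap cannot be assigned to either gene. Mrpl57, another protein found in mitochondria alone, was at 92.6 and 92.1 CPM in PBS and at 111, 125, 114 and 113 CPM in IL-10/Fc, with a log2 fold change of 0.32 (SE 0.10). Mrpl58, also known as ICT1, is a peptidyl-tRNA hydrolase built into the large subunit that can release stalled chains. It was at 96.7 and 98.9 CPM in PBS and at 112, 124, 109.6 and 129 CPM in IL-10/Fc, with a log2 fold change of 0.28 (SE 0.11), again with no overlap.

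Of the small subunit, Mrps16 (chr14:20391231-20393555), a counterpart of bacterial S16, was at 109 and 129 CPM in PBS and at 173, 187, 159 and 184 CPM in IL-10/Fc. The log2 fold change was 0.56 (SE 0.12, unadjusted p 0.00316, adjusted p 0.199 by edgeR's quasi-likelihood test). Mrps24, the counterpart of bacterial S3, was at 112 and 132 CPM in PBS and at 159, 171, 171 and 163 CPM in IL-10/Fc, 0.44 (SE 0.11) on the log2 scale. Both genes were higher in every IL-10/Fc library than in either PBS library. Mrps14, the member with the highest mean CPM, 220 over the 6 libraries, was at 187 and 192 CPM in PBS and at 226, 227, 243 and 244 CPM in IL-10/Fc. Here the difference was small (log2 fold change 0.31, SE 0.09) but the spread within each group smaller still, 189 ± 3.43 (SD, n = 2) against 235 ± 9.89 (SD, n = 4).

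Mrps21, a counterpart of bacterial S21, and Mrpl54, found in mitochondria alone, were named after their values were seen, as the other protein-coding members higher at an unadjusted p under 0.05. Mrps21 was at 90.8 and 136 CPM in PBS and at 165, 147, 157 and 182 CPM in IL-10/Fc, with a log2 fold change of 0.52 (SE 0.18) that was 0.26 without PBS replicate 1 and 0.84 without PBS replicate 2. Mrpl54 was at 134 and 136 CPM in PBS and at 146, 195, 175 and 199 CPM in IL-10/Fc, 0.40 on the log2 scale (SE 0.15). Neither gene's groups overlapped.

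Of the members lower in IL-10/Fc, Mrpl50 (chr4:49512596-49521093), a large-subunit protein found in mitochondria alone, had the smallest p. It was at 61.0 and 58.1 CPM in PBS and at 32.4, 38.6, 38.1 and 46.4 CPM in IL-10/Fc, and all 4 treated libraries lay below both controls. The mean was 59.6 ± 2.1 (SD, n = 2) against 38.9 ± 5.76 (SD, n = 4), a log2 fold change of -0.61 (SE 0.17, unadjusted p 0.00953). Mrps9 (chr1:42851233-42905683), the counterpart of bacterial S9, had the most negative log2 fold change of any member, -0.70 (SE 0.21). It was at 144 and 92.8 CPM in PBS and at 60.9, 72.2, 82.1 and 76.9 CPM in IL-10/Fc. The PBS libraries differed from each other more than the nearest libraries of the groups did, and without PBS replicate 1 the log2 fold change of Mrps9 was -0.35.

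Mrpl2, the counterpart of bacterial L2 near the peptidyl transferase centre, was at 58.3 and 39.9 CPM in PBS and at 26.8, 29.1, 35.5 and 34.0 CPM in IL-10/Fc, with a log2 fold change of -0.65 (SE 0.21) that became -0.35 without PBS replicate 1. Mrps35, of the small subunit, was at 56.8 and 60.3 CPM in PBS and at 31.7, 43.3, 45.4 and 41.7 CPM in IL-10/Fc (-0.53, SE 0.17). Mrpl45, which lies at the exit of the peptide tunnel and ties the ribosome to the inner membrane, was at 78.1 and 76.1 CPM in PBS and at 43.4, 66.9, 57.0 and 59.1 CPM in IL-10/Fc (-0.45, SE 0.18). None of these 3 had overlapping groups.

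The next lower members by p had unadjusted p above 0.05. Mrpl38 was at 14.7 and 27.2 CPM in PBS and at 12.2, 13.1, 15.2 and 11.7 CPM in IL-10/Fc, with overlap, and its log2 fold change of -0.68 (SE 0.29) was -0.17 without PBS replicate 2 and -1.06 without PBS replicate 1. Mrpl19, the counterpart of bacterial L19, was at 52.3 and 64.2 CPM in PBS and at 38.2, 50.6, 49.5 and 45.2 CPM in IL-10/Fc (-0.35, SE 0.17, and -0.19 without PBS replicate 2). Exons of Mrpl19 overlap Gcfc2 over 39.2% of their length, so part of its reads cannot be assigned.

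**Figure D3:**
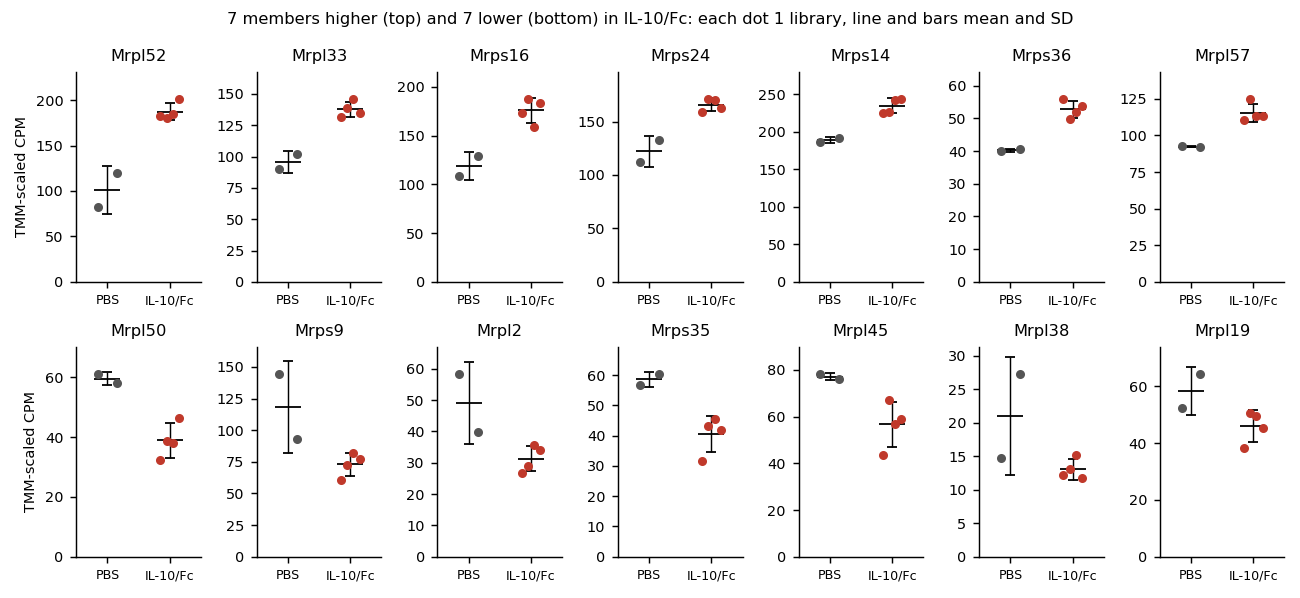
TMM-scaled CPM of the 7 higher (top) and 7 lower (bottom) members of smallest p, each dot 1 library, with the group mean and SD (2 PBS, 4 IL-10/Fc); every vertical axis starts at 0. In 13 of the 14 panels the groups did not overlap, and in Mrpl38 the PBS library at 14.7 lay below the IL-10/Fc library at 15.2.

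Proteins at the working sites of the ribosome, and the paralogues of S18, were described whatever their values. The stalk of the large subunit recruits the translation factors. Its Mrpl12 was at 57.5 and 63.0 CPM in PBS and at 56.1, 61.0, 66.1 and 59.4 CPM in IL-10/Fc, with a log2 fold change of 0.01 (SE 0.13). Mrpl10, which anchors Mrpl12, was at 18.9 and 20.2 CPM in PBS and at 17.7 to 29.0 CPM in IL-10/Fc (0.28, SE 0.23). Mrpl11, at the base of the stalk, was at 45.4 and 44.8 CPM in PBS and at 33.9 to 48.4 CPM in IL-10/Fc (-0.16, SE 0.17). All 3 overlapped between groups, and Mrpl12 was at -0.16 on the log2 scale with library size in place of TMM scaling. Mrps12, the counterpart of S12 at the decoding site, was at 63.1 and 75.4 CPM in PBS and at 85.9, 84.0, 79.3 and 81.3 CPM in IL-10/Fc, without overlap (0.25, SE 0.12, unadjusted p 0.0765). The log2 fold change of Mrps12 was 0.13 without PBS replicate 1 and 0.39 without PBS replicate 2.

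Mitochondria hold 3 relatives of bacterial S18, of which Mrps18c and Mrps18b sit in the small and Mrps18a in the large subunit. Mrps18c was at 81.8 and 59.9 CPM in PBS and at 71.1 to 89.2 CPM in IL-10/Fc (0.19, SE 0.17). Mrps18a was at 53.0 and 55.3 CPM in PBS and at 48.2 to 64.5 CPM in IL-10/Fc (0.09, SE 0.15). Mrps18b was at 18.0 and 14.6 CPM in PBS and at 15.5 to 19.3 CPM in IL-10/Fc (0.12, SE 0.20), with 59.1% of its exon length shared with Gm16279. The groups overlapped for all 3 paralogues, whose log2 fold changes were -0.02 to 0.43, 0.03 to 0.17 and -0.02 to 0.28 when each library was left out in turn, and -0.08 for Mrps18a and -0.05 for Mrps18b with library size in place of TMM scaling. Mrps30, in the large subunit by structure, was at 56.2 and 40.2 CPM in PBS and at 32.6 to 41.4 CPM in IL-10/Fc (-0.35, SE 0.19, and -0.09 without PBS replicate 1).

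In mean CPM, 3 genes led the large subunit. Mrpl4, the counterpart of L4, was at 164 and 211 CPM in PBS and at 198, 227, 179 and 225 CPM in IL-10/Fc. Mrpl42 was at 159 and 176 CPM in PBS and at 149, 149, 188 and 189 CPM in IL-10/Fc, and Mrpl18, a relative of the protein that holds the 5S ribosomal RNA in bacteria, at 152 and 158 against 167, 153, 186 and 189 CPM. Their groups overlapped, and the log2 fold changes of 0.14, 0.01 and 0.17 were -0.03, -0.16 and -0.004 at the lowest among the alternatives. Per kilobase of merged exon, members spanned 2.30 (Mrpl9), 3.01 (Mrps5) and 3.34 (Mrpl1) to 272 (Mrpl54), 297 (Mrps21) and 323 (Mrpl52) CPM per kilobase over the 6 libraries, these 6 being named for their rank.

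Reads of 3 genes may be split with near-identical processed pseudogenes that are rows of their own. The pairs are shown by 60 bases of the coding sequence of Mrps36 (bases 69 to 128 of its 306) beside its copy on chromosome 17, with mismatches in capitals, and by the start of Mrpl23.
Mrps36: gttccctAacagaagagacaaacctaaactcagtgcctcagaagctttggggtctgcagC
Mrps36-ps1: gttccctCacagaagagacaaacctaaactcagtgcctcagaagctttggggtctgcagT
Mrpl23: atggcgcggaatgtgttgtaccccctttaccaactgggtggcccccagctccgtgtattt
The coding sequence of Mrps36 was identical to Mrps36-ps1 (chr17:53866715-53867020) at 304 of 306 bases and to Mrps36-ps2 (chr7:105690259-105690567) at 303. That of Mrpl23 (chr7:142532686-142540747) was identical to Mrpl23-ps1 (chr2:74591330-74591909) at all 438 bases, and that of Mrpl48 to Mrpl48-ps at 621 of 633. Single values of these rows are therefore uncertain, while their sums are less so.

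Mrps36 was at 39.9 and 40.5 CPM in PBS and at 55.8, 49.7, 51.8 and 53.9 CPM in IL-10/Fc (log2 fold change 0.39, SE 0.12), and Mrps36-ps1 at 38.7 and 43.2 against 54.7, 50.5, 51.4 and 52.3 CPM (0.35, SE 0.13). The 3 rows of Mrps36 summed to 87.9 and 95.6 CPM in PBS and to 125, 112, 115 and 119.9 CPM in IL-10/Fc, 91.7 ± 5.45 (SD, n = 2) against 118 ± 5.77 (SD, n = 4), and did not overlap. Since the rows may hold the same reads, they are not separate evidence. For Mrpl23, 81.6% of the summed level lay in the pseudogene row. The sum was 131 and 125 CPM in PBS and 136, 132, 123 and 126 CPM in IL-10/Fc, which overlap. Mrpl48 and its pseudogene summed to 87.4 and 82.7 CPM in PBS and 69.5, 85.1, 67.3 and 69.2 CPM in IL-10/Fc, also with overlap. In addition, 20 protein-coding members, Mrpl48 among them, share at least 5% of their exon length with another gene, and without strand the reads there cannot be assigned. Of members named for their role, these include Mrps30 (18.1%, with B430218F22Rik), Mrps18c (18.5%, with Gm43511), Mrpl12 (15.2%, with Gm16755) and Mrpl10 (14.1%, with Gm11574).

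The log2 fold changes were ordered by coding length, a relation noticed in these data and given as a description. The coding sequences of the 77 protein-coding members run from 195 to 1326 bases with a median of 588. Of the 23 members of up to 450 bases, 18 were higher and 5 lower in IL-10/Fc, with a median log2 fold change of 0.24. Of the 27 above 450 and up to 750 bases, 14 were higher and 13 lower (median 0.00), and of the 27 above 750 bases, 8 were higher and 19 lower (median -0.10). The same classes of all protein-coding genes had medians of 0.13 (932 genes), 0.05 (1655) and -0.06 (8627), in the same order.

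Across the 77 members, Spearman's rho of coding length with log2 fold change was -0.578, and it was -0.499 over the 48 Mrpl and -0.665 over the 29 Mrps members. Over all 11214 protein-coding genes tested rho was -0.018, and -0.123 over the 4678 of them with at least 20 CPM. All points share the same 6 libraries and are not independent. For the members, rho was -0.275 with the length of the whole transcript, -0.005 with GC content and 0.494 with mean CPM, and coding length itself went with mean CPM at -0.466. Level and length therefore go together among the members, and their parts were not separated.

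In each library, the mean log2(CPM + 1) of the 39 members at or below the median coding length was set against that of the 38 longer ones, a split chosen after the data were seen. The short members exceeded the long by 0.577 and 0.715 in the PBS libraries, and in IL-10/Fc by 1.03, 0.886, 0.847 and 0.929. Every IL-10/Fc library lay above both PBS libraries, at 0.923 ± 0.0795 (SD, n = 4) against 0.646 ± 0.0976 (SD, n = 2). Short members summed to 3345 and 3622 CPM in PBS and to 3892, 3953, 4042 and 4209.8 CPM in IL-10/Fc, and long members to 2419 and 2473 against 2177, 2358, 2320.2 and 2431 CPM. The same split of all protein-coding genes tested, members included (1615 short, 9599 long), gave 1.19 and 1.17 for PBS against 1.29 to 1.37 for IL-10/Fc. Short genes were thus higher relative to long ones in IL-10/Fc over this wider set as well, with a difference of 0.134 against 0.277 among the members.

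**Figure D4:**
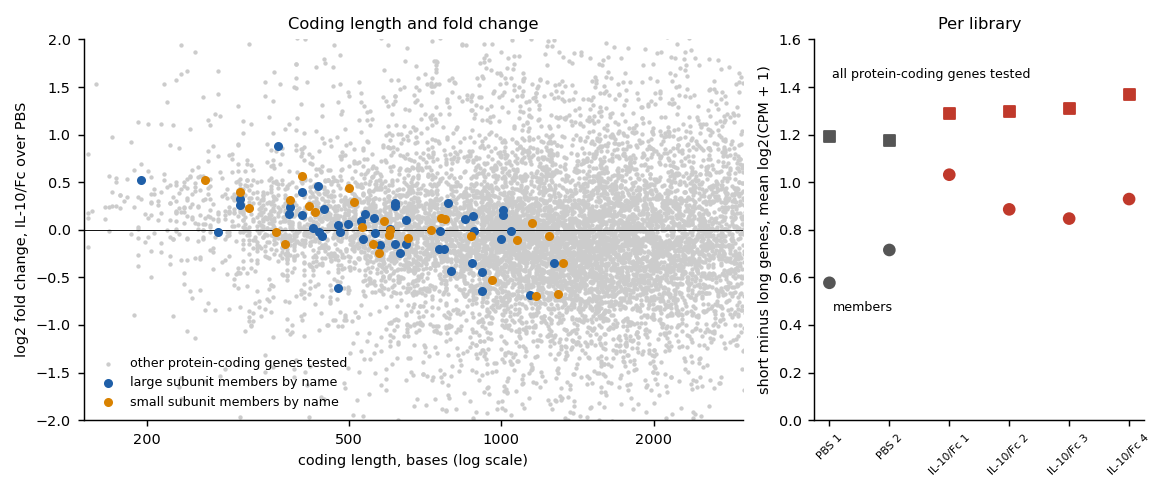
Left, coding length (log scale, bases) against the log2 fold change for the 77 protein-coding members and the other protein-coding genes tested, of which those beyond the axes are not drawn. Right, mean log2(CPM + 1) of short minus long genes in each library (grey PBS, red IL-10/Fc; circles members, squares all protein-coding genes tested), at 0.577 and 0.715 in PBS against 0.847 to 1.03 in IL-10/Fc for the members.

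The motif windows were also read against these calls, again as counts with no test. Of the 9 members higher at an unadjusted p under 0.05 that have a window, 6 held CCGGAAG (Mrpl33, Mrpl52, Mrpl57, Mrpl58, Mrps16 and Mrps21). Mrps14, Mrps24 and Mrps36, also higher, did not hold it, and of the 4 lower members 0 did. The share was 35.3% over all 68 member windows and 19.5% over genes tested. The windows of Mrpl52, Mrps16 and Mrpl50 printed above are 3 of these, and the groups were picked by p in these same libraries. GGGCGG was in 5 of the 9 and 2 of the 4, beside 50.0% of member windows and 63.2% of genes tested. AAGATGGC was in 1 and 0 (17.6% and 5.07%), and the NRF1 motif in 0 and 0 (4.41% and 2.15%). With so few windows the counts describe these genes only.

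The rest of the mitochondrial translation pathway was read from lists, and no gene of them passed an adjusted p of 0.05 in edgeR's quasi-likelihood test. The ribosome's own RNAs were higher in IL-10/Fc: mt-Rnr1, of the small subunit, was at 996 and 929 CPM in PBS and at 1250.0, 1286, 1177 and 1234 CPM in IL-10/Fc (log2 fold change 0.36, SE 0.08, unadjusted p 0.00367), and mt-Rnr2, of the large subunit, at 6341 and 5993 against 8046, 8186, 7064 and 7240.0 CPM (0.31, SE 0.09). Neither overlapped between groups, and with library size alone their median log2 fold change of 0.33 was 0.16. The libraries were primed on poly(A), so these values hold only ribosomal RNA copied that way. Of the mRNAs that the mitoribosome translates, 9 of 13 listed were in the table and all 9 had log2 fold changes above 0 (median 0.12), a median that was -0.05 with library size alone. The smallest p belonged to mt-Nd2, a complex I subunit, at 287 and 341 CPM in PBS and at 379.6, 385, 433 and 389 CPM in IL-10/Fc (0.34, SE 0.11, and 0.22 without PBS replicate 1), and to mt-Nd3, of the same complex, at 47.0 and 50.1 against 56.6, 61.0, 57.7 and 60.5 CPM (0.28, SE 0.12). Mitochondrial genes took 2.35% to 2.50% of counts in the 6 libraries.

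Of mitoribosome proteins under other names, 5 were in the table (2 higher, 3 lower, median -0.08), the other 2 symbols of the list being older names of Mrpl58 and Mrpl57. Aurkaip1 was at 168 and 180.5 CPM in PBS and at 197 to 225 CPM in IL-10/Fc (0.31, SE 0.10), and Chchd1 at 80.6 and 101 against 96.5 to 133 CPM (0.22, SE 0.18). Both are small-subunit proteins. The log2 fold change of Chchd1 was 0.0675 without PBS replicate 1, 0.40 without PBS replicate 2 and 0.10 without IL-10/Fc replicate 3. Dap3, a GTP-binding protein of the small subunit, was at 101 and 43.9 CPM in PBS and at 58.2, 77.5, 72.2 and 67.4 CPM in IL-10/Fc (-0.08, SE 0.32), the PBS pair spanning the treated libraries. Its log2 fold change was 0.65 without PBS replicate 1 and -0.56 without PBS replicate 2.

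The lists of genes that serve the ribosome had medians below 0. Of 18 translation factors, 4 had log2 fold changes above and 14 below 0 (median -0.30), beside 50.7% of all genes tested below 0. At an unadjusted p under 0.05, 0 were higher and 2 lower, beside 7.2% and 5.52% of all genes tested, shares that also apply to the lists below. Guf1, a back-translocating elongation factor, was at 42.1 and 44.4 CPM in PBS and at 30.6, 33.4, 30.0 and 29.6 CPM in IL-10/Fc (-0.48, SE 0.14), and Lrpprc, which stabilises mitochondrial mRNAs, at 18.8 and 27.4 against 13.8, 7.22, 14.3 and 10.4 CPM (-1.01, SE 0.33). Neither overlapped. Of 29 genes of assembly and rRNA modification, 8 were above and 21 below 0 (median -0.29), with 0 higher and 2 lower at p under 0.05, near the share of all genes that were lower. Mterf4, which brings the methyltransferase Nsun4 to the large subunit, averaged 16.8 ± 3.97 CPM (SD, n = 2) in PBS against 10.1 ± 1.57 CPM (SD, n = 4) with IL-10/Fc (-0.74, SE 0.25), and Wbscr16, now called Rcc1l, at 11.9 and 6.80 against 2.35 to 5.27 CPM (-1.15, SE 0.42). Without PBS replicate 1 these became -0.47 and -0.69.

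The 20 mitochondrial aminoacyl-tRNA synthetases and their amidotransferase partners, which charge the tRNAs that the mitoribosome reads, had the lowest median of the 7 lists, -0.53, with 4 above and 16 below 0 and, at an unadjusted p under 0.05, 0 higher and 4 lower (7.2% and 5.52% of all genes tested). Gatc, a subunit of the glutamyl-tRNA amidotransferase, was at 19.9 and 20.6 CPM in PBS and at 10.7, 11.2, 11.0 and 9.23 CPM in IL-10/Fc (-0.94, SE 0.19, unadjusted p 0.00211, adjusted p 0.193 by edgeR's quasi-likelihood test). Nars2, for asparagine, was at 13.7 and 10.5 against 3.42, 6.38, 6.05 and 4.96 CPM (-1.21, SE 0.33). Without IL-10/Fc replicate 1 the median was -0.37, and the summed level, 510 and 504 CPM in PBS and 1023, 506, 546 and 523 CPM in IL-10/Fc, was set in that library by Lars2, at 840.3 CPM against 186 to 312 in the other 5. The 13 genes of mitochondrial transcription and genome maintenance had 5 above and 8 below 0 (median -0.16). Mgme1, a nuclease of mitochondrial DNA, was at 8.42 and 3.99 CPM in PBS and at 2.65 to 4.97 CPM in IL-10/Fc, and Polg, the mitochondrial DNA polymerase, at 3.70 and 1.31 against 2.37 to 8.41 CPM, both with overlap. Without PBS replicate 1 the log2 fold changes of Mgme1 and Polg, -0.84 and 0.93, were -0.21 and 1.87, and without PBS replicate 2 they were -1.28 and 0.37.

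Coding length differed between these lists as well. The median was 666 bases for the proteins under other names, 1228.5 for the translation factors, 1143 for the assembly list, 1188 for transcription and genome maintenance and 1615.5 for the synthetases, beside 588 for the mitoribosome members. Ordered by coding length, these 6 sets had median log2 fold changes of 0.01, -0.08, -0.29, -0.16, -0.30 and -0.53. The order was not strict, since transcription and genome maintenance stood above the shorter assembly list. The mitochondrial mRNAs, at a median of 1035 bases, stood outside it at 0.12. Level differed too, with a median mean CPM of 63.4 for the members and 70.1 for proteins under other names. It was 14.1 for translation factors, 11.8 for assembly, 10.3 for transcription and genome maintenance and 12.7 for synthetases. The parts of length and level in the difference between lists were not tested.

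**Figure D5:**
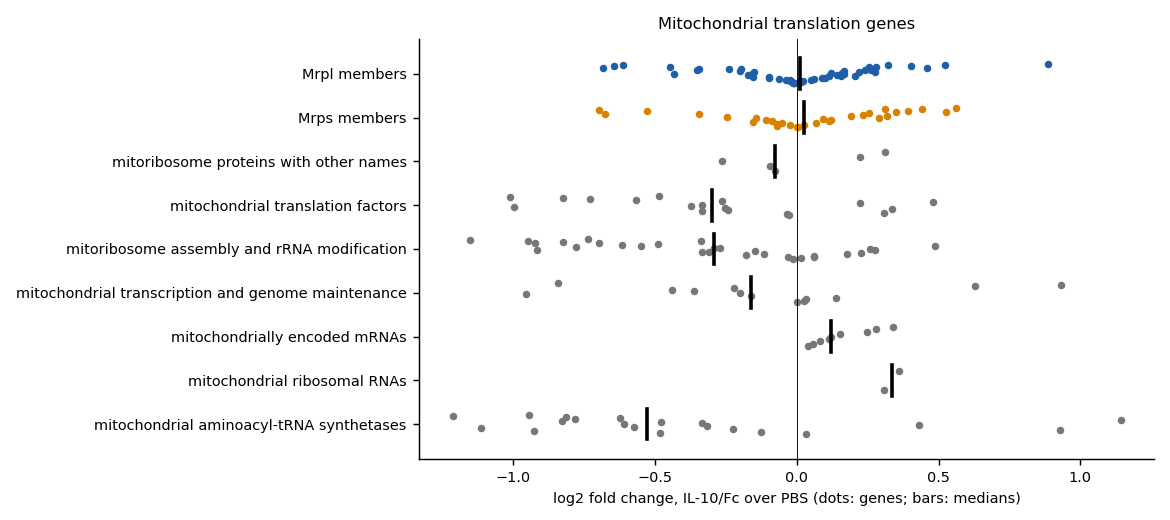
Log2 fold change, IL-10/Fc over PBS, of each gene (dots) and the median (bars) for Mrpl and Mrps members and 7 lists of the mitochondrial translation pathway. Medians ran from -0.53 for the synthetases to 0.33 for the mitochondrial ribosomal RNAs, with Mrpl members at 0.01 and Mrps members at 0.03.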

How the data were processed

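Smart-Seq2 RNA libraries of 500 sorted cells each were analysed, 2 of PBS and 4 of IL-10/Fc. The authors deposited raw counts, as whole numbers, in 1 file per library, and a series table that repeats them beside a comparison not used here. Per the submitters' processing notes, the tools included TopHat2 2.1.1 with Bowtie2 2.2.9, Trimmomatic, DESeq2, Cuffdiff and Cufflinks 2.2.1, and the build was GRCm38 (counting tool: not given in the sources used here). Columns of the series table number the PBS libraries otherwise than the titles, which were followed. Totals cover the 15898 genes listed, and 3 counts equal 0.0855 to 0.108 CPM. Floors cover counting error only.

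Genes passing edgeR's filterByExpr (edgeR 4.0.16, R 4.3.3) were scaled by TMM and tested two-sided with edgeR's quasi-likelihood test with the robust option, group as the sole term, and Benjamini-Hochberg adjustment over 15477 genes at 0.05. The script was tested on simulated data. No replicate pair agreed within sampling noise (chi-square over degrees of freedom 126 in PBS, 43.6 to 82.7 in IL-10/Fc). Lengths, exon overlaps and coding sequences come from GENCODE M21 on GRCm38, and promoter windows from RefSeq. Coordinates are 1-based. CPM per kilobase uses merged exons.

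Members and lists were chosen with earlier results of these data known. The text names the 7 higher and 7 lower members of smallest p with at least 5 CPM, the 3 highest of each subunit, 11 members fixed by role (Mrpl10, Mrpl11, Mrpl12, Mrpl45, Mrpl58, Mrps12, Mrps18a, Mrps18b, Mrps18c, Mrps30 and Mrps36) and the 2 of smallest p of each list; the rule also covers any member past the threshold. Others were chosen after their values were seen. Alternatives were DESeq2 size factors, library size only, the DESeq2 1.42.0 Wald test, limma-voom (limma 3.58.1), no filter, at least 20 CPM in 2 libraries, no robust option, a replicate block, each library left out, members placed by structure, and, added after the data were seen, protein-coding members only, transcript length and members without exon overlap.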

Additional observations from a re-analysis of the deposited data

Results flagged for a closer look

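Of 45 values compared among the 4 IL-10/Fc libraries, 1 library stood apart in 1 value. Chchd1, a small-subunit protein of the mitoribosome under another name, was at 133 CPM in IL-10/Fc replicate 3 and at 96.5 to 98.8 CPM in the other 3 IL-10/Fc libraries. The gap was 0.939 of the group's whole range, above Dixon's critical value for 4 samples. About 1 in 20 such comparisons would pass that value by chance. Lars2 was not among the 45 values, though it stood apart too, at 840.3 CPM in IL-10/Fc replicate 1 and at 279 to 312 CPM in the other IL-10/Fc libraries.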

How the results depend on the processing

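The number of members past an adjusted p of 0.05 was 0 in 13 of 14 alternatives and 5 with the DESeq2 Wald test. At an unadjusted p under 0.05, the 11 higher and 5 lower members became 4 and 14 with library size only, 3 and 1 with the replicate block, and 6 to 16 and 3 to 6 with each library left out. With the replicate block, 3.70% of members were higher, against 4.04% of all genes tested, and 1.23% were lower, against 3.76%. The larger share of higher members in the main fit was thus not seen there. With 1 IL-10/Fc library left out it was still seen, at 8.64% to 12.3% of members against 5.50% to 6.52% of all genes. With at least 20 CPM in 2 libraries the shares were closer, at 12.9% of members against 10.2% of genes. The median log2 fold change of all members was -0.15 with library size only and -0.00421 to 0.0767 with each library left out. For the large subunit these were -0.16 and -0.0252 to 0.0840, and for the small subunit -0.15 and 0.0187 to 0.0876. With library size only, the median of all genes tested moved to -0.18, so values under that scaling are to be read against it. Under that scaling the list medians were -0.26 for proteins under other names, -0.46 for translation factors, -0.46 for assembly, -0.32 for transcription and genome maintenance, -0.0495 for mitochondrial mRNAs, 0.16 for mitochondrial ribosomal RNAs and -0.71 for synthetases. With each library left out they were, in the same order, -0.0865 to 0.35, -0.39 to -0.25, -0.41 to -0.12, -0.35 to -0.0777, 0.11 to 0.20, 0.29 to 0.38 and -0.63 to -0.37. Proteins under other names had 0.0433 with limma-voom and 0.0113 with the replicate block, translation factors -0.45 with the block, and with at least 20 CPM in 2 libraries the assembly list had -0.14 and the synthetases -0.36. The difference in the large-to-small ratio (-0.048) was -0.0722 to -0.0238, and the short-minus-long difference (0.277) 0.208 to 0.346, with each library left out. Spearman's rho of coding length was -0.618 to -0.431 over the alternatives that kept coding length, and -0.275 with transcript length. Labels number replicates in both groups, but same-numbered libraries deviated together at only 0.0639 and 0.0162 over genes, so the numbers were not taken as a pairing. The replicate block rests on replicates 1 and 2, since replicates 3 and 4 exist in IL-10/Fc alone. Where 1 PBS library was left out, the spread of the other was assumed to be that of the IL-10/Fc libraries.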

Other observations

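Many nuclear genes for mitochondrial proteins start back to back with another gene. Of the 77 protein-coding members, 17 (22.1%) had a protein-coding neighbour on the other strand whose start lay upstream of their own, within 500 bases. The share was 10.2% of 11214 protein-coding genes tested. Mrps11 and Mrpl46, whose annotated spans overlap at their starts on opposite strands, were not counted. In 16 of these pairs the neighbour was tested too, and 10 had log2 fold changes of the same sign. Of all genes tested, 49.3% had log2 fold changes above 0 and 50.7% below. Mrpl50 starts 83 bases from Zfp189, a zinc finger gene, which was at a mean of 8.76 CPM in PBS and 2.37 CPM in IL-10/Fc (log2 fold change -1.89, SE 0.67), beside -0.61 for Mrpl50. Mrpl57 starts 49 bases from Ska3, whose protein helps to hold chromosomes on the spindle. Ska3 was at 23.6 CPM in PBS and 10.9 CPM in IL-10/Fc (-1.11, SE 0.38), while Mrpl57 was at 0.32. Mrpl37 starts 120 bases from Cyb5rl, which was at a mean of 0.531 CPM in PBS and 1.84 CPM in IL-10/Fc (1.78, SE 0.63), while Mrpl37 was at -0.35. Mrpl32 starts 75 bases from Psma2, a proteasome subunit, with 0.12 and 0.23. These pairs were chosen after their values were seen, and no unadjusted p of a neighbour was below 0.0247.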
